A study of Mus musculus with 6 samples.

Results

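Ribosomal proteins are the protein parts of the cytosolic ribosome, which translates mRNA in every cell. The large subunit carries the proteins named Rpl and the small subunit those named Rps. Most of these proteins are needed in equal number with ribosomal RNA. Their mRNAs share a pyrimidine-rich 5′ end (the TOP motif), through which the mTOR pathway and the RNA-binding protein Larp1 control their translation and stability, and growing and activated T cells are known to make many new ribosomes.

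Bulk RNA-Seq counts of these genes were compared between 3 WT samples (Foxp3Cre) and 3 KO samples (Foxp3Cre Zfp335fl/fl) of sorted CD4+YFP+CD25+ Tregs from 2-week-old C57BL/6 mice. All 6 samples carried Foxp3Cre, which deletes floxed Zfp335 and marks the cells with YFP in Foxp3-expressing cells only. The labels named both lymph nodes and spleen as the tissue, and the number of mice behind each sample is not given in the sources used here, so that p-values measure the spread between samples. Library totals ranged from 32032631 to 40728419 counts.

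The members were all rows named Rpl or Rps with a number, with Rplp0, Rplp1, Rplp2 and Rpsa, without S6 kinases, pseudogenes and 4 similar names. This gave 77 rows of 13709, under 76 symbols because Rpl37rt had 2 rows. The members comprised 46 large subunit and 31 small subunit rows, and all 77 were among the 13594 genes tested. Both Rpl37rt rows took the same annotation through their shared symbol, so which gene each row counts is uncertain. Of 80 core ribosomal proteins of mammals, 71 were members, with neither Rpl37rt row counted as core. Rps3a1, Fau and Rack1 lie outside the rule by name and are given separately, and the others were not analysed here. The targeted gene, Zfp335, measured 101, 94.3 and 103 CPM in WT (counts divided by the library size after TMM scaling) and 37.0, 37.9 and 40.2 CPM in KO. Its groups did not overlap (log2 fold change -1.37 ± 0.07 SE, adjusted p = 2.14e-05, edgeR).

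Most ribosomal protein genes were lower in KO Tregs, by a modest amount. Summed over the 77 rows, the level was 54614, 62770 and 69157 CPM in WT1, WT2 and WT3, and 51451, 51056 and 52208 CPM in KO1, KO2 and KO3. KO samples lay close together, below every WT sample, while the WT samples were spread widely and WT1 lay nearest to KO. The KO mean was 82.9% of the WT mean. The small subunit genes came to 80.7% and the large subunit genes to 84.5% of their WT means. By row the order was the other way, with a median log2 fold change of -0.31 for small and -0.34 for large subunit rows. CPM is relative to all counts of a library, and less RNA per cell from these genes cannot be told apart from a different mix of cells.

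**Figure D1:**
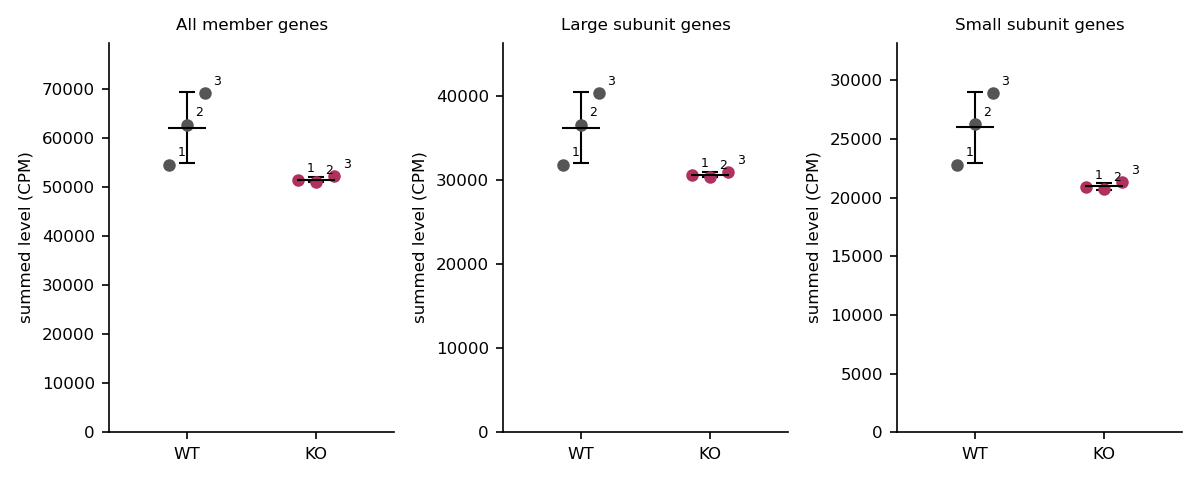
Summed level of the member genes, in CPM, for all, large subunit and small subunit genes. Points are samples, labelled by replicate number, and bars are the mean ± SD of 3 samples; KO samples sit between 51056 and 52208 CPM for all genes, below all WT samples.

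At an adjusted p under 0.1 (edgeR quasi-likelihood test, Benjamini-Hochberg over all genes), 50 of 77 rows fell and 1, Rps27l, rose. Over all genes 24.3% fell at this threshold, and 25.8% of the genes of at least 100 CPM. The value was below 0 in 72 of 77 rows. The median log2 fold change was -0.34, against -0.04 over all genes tested. Every KO sample lay below every WT sample in 51 of 77 rows, against 27.6% of all genes. With the study's added cutoff of a 1.5-fold change, 3 rows were called lower, a smaller share than the 12.5% of all genes, and 0 were called higher, where 11.9% of all genes were. At an unadjusted p under 0.05 edgeR gave 1 higher row, and DESeq2 called 1 higher row at the study's cutoffs. 

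The WT samples differed among themselves in a shared order. WT1 was the lowest WT sample in 73 of 77 rows and WT3 the highest in 67. The median coefficient of variation over the rows was 12.9% in WT and 3.69% in KO. Without WT1 the median log2 fold change was -0.42 and 14 rows were called lower. Without WT3 the median was -0.23 and 1 row was called lower. The count at adjusted p under 0.1 was 64 without WT1, 57 without WT3, 32 without KO1 and 33 without KO2, higher and lower rows together. WT3 also stood apart in a list of 12 cycling genes, whose summed level was 1697, 1685 and 926 CPM in WT1 to WT3. In KO the cycling genes summed to between 4329 and 4535 CPM. At adjusted p under 0.1, 12 of 12 rose, against 22.7% of all genes. The part of cycling cells in the ribosomal protein result was not tested.

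**Figure D2:**
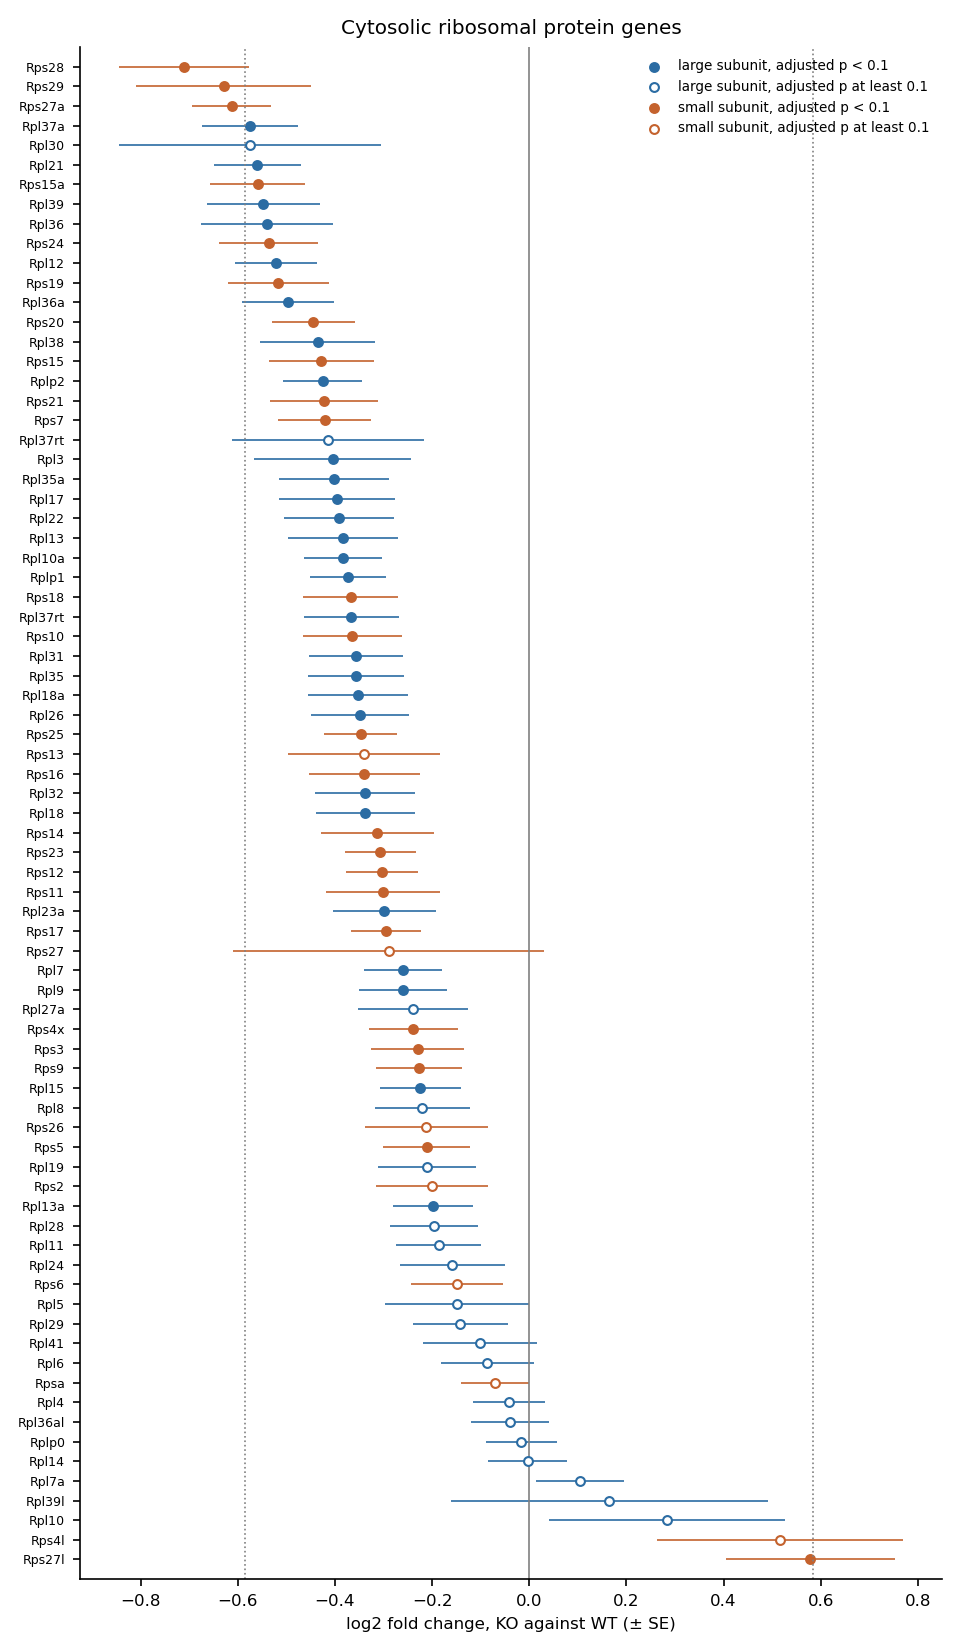
Log2 fold change of each member row, KO against WT, with its SE. Filled points have an adjusted p under 0.1, and dotted lines mark a 1.5-fold change; 72 of 77 points lie below 0.

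The 3 called genes encode small subunit proteins. Rps28, of the mRNA exit region, measured 200, 239 and 271 CPM in WT and 123, 154 and 157 CPM in KO. The groups did not overlap, and by own rows it had the lowest log2 fold change of the members (-0.71 ± 0.13 SE, adjusted p = 0.0046, edgeR). Rps29 measured 431, 605 and 652 CPM in WT and 292, 416 and 384 CPM in KO. All KO samples were below all WT samples (-0.63 ± 0.18 SE, adjusted p = 0.027), but WT1 lay close to KO2. Rps27a is made as a fusion with ubiquitin that is cut after translation. It measured 693, 785 and 820 CPM in WT and 509, 477 and 516 CPM in KO, a wide gap against the spread (-0.61 ± 0.08 SE, adjusted p = 0.0010). Rps28 overlaps Kank3 and Rps27a overlaps Clhc1, and since use of the strand in counting was not stated, these values are uncertain. Rps29 and Rps27a were not called without WT3, at -0.51 and -0.57, nor was Rps29 without WT2 (-0.58) or with offsets for GC content and length (-0.56).

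**Figure D3:**
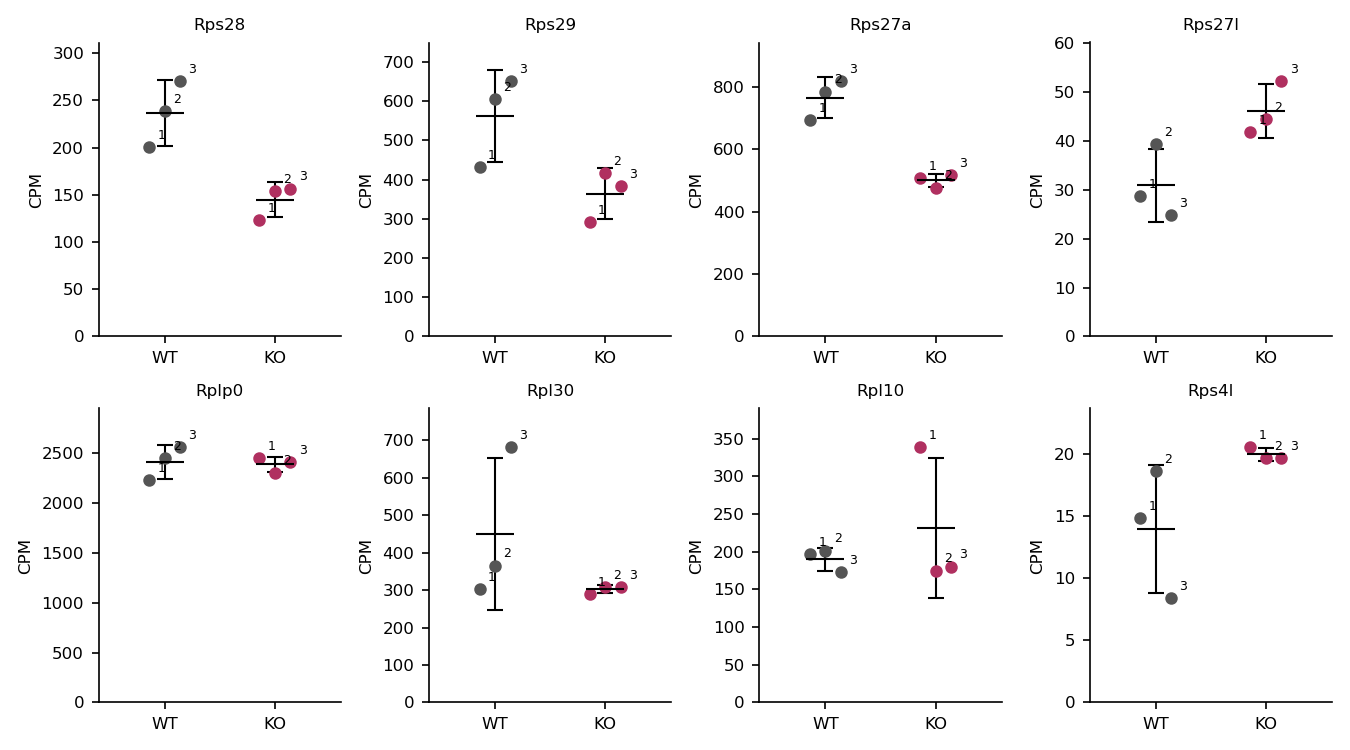
CPM of 8 named members in each sample, with the mean ± SD of 3 samples per genotype. Rps28, Rps29 and Rps27a do not overlap between genotypes; Rplp0 does, and single samples stand apart in Rpl30 (WT3) and Rpl10 (KO1).

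Further genes with low log2 fold changes were Rpl37a (-0.58 ± 0.10 SE), Rpl21 (-0.56 ± 0.09 SE), Rps15a (-0.56 ± 0.10 SE) and Rpl39 (-0.55 ± 0.12 SE), all with an adjusted p under 0.1. Rpl30 had a value as low (-0.57 ± 0.27 SE) but did not pass (adjusted p = 0.13, edgeR). It measured 302, 366 and 682 CPM in WT and 289, 308 and 309 CPM in KO, so that WT3 alone was high and the groups overlapped.

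The counts by position below are read against the 64.9% of all member rows and the 24.3% of all genes that fell. Whether any of these lists differed from the other members was not tested. By position in the ribosome, the P stalk, which recruits translation factors, had 3 of 4 members that fell. Rplp1 (-0.37 ± 0.08 SE), Rplp2 (-0.43 ± 0.08 SE) and Rpl12 (-0.52 ± 0.08 SE) fell. Their scaffold Rplp0 measured 2233, 2450 and 2566 CPM in WT and 2449, 2306 and 2411 CPM in KO, which overlapped (-0.02 ± 0.07 SE, adjusted p = 0.88, edgeR). Its sign turned positive with DESeq2 and with RLE scaling. Around the exit of the nascent chain 6 of 7 fell, with a median of -0.36 and only Rpl19 not passing. Neither protein of the 5S particle, which also binds Mdm2, passed by its own row, with -0.15 ± 0.15 SE for Rpl5 and -0.19 ± 0.09 SE for Rpl11. The Rpl5 row is uncertain, since its identical copy Gm15500 held 93.4% to 95.7% of their joint counts, and summed with it Rpl5 fell (-0.30 ± 0.09 SE, adjusted p = 0.026, edgeR). At the mRNA entry 2 of 3 fell (Rps3 and Rps9), and at the mRNA exit 4 of 5, counting Rps3a1, which is outside the member rule. Of 9 genes whose loss causes Diamond-Blackfan anemia, an inherited failure of red cell production, 6 fell by their own rows, not counting Rpl5, among them Rps19 (-0.52 ± 0.10 SE) and Rps24 (-0.54 ± 0.10 SE).

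The 3 members with the closest group means were Rpl14 (-0.0029 ± 0.08 SE, positive with DESeq2 and RLE scaling), Rplp0 and Rpl36al (-0.04 ± 0.08 SE). Rpl4, Rpsa and Rpl6, whose coding sequences are among the longer ones, also had values near 0 and did not pass. Across the 71 core members, the log2 fold change was less negative in genes with longer coding sequences (Spearman's rho 0.61, Pearson's r 0.55, a description across genes of the same libraries). The median was -0.42 in the 25 members of 75 to 405 bases, -0.34 in the 22 of 411 to 564 bases and -0.21 in the 24 of 576 to 1257 bases. With offsets for GC content and length rho was 0.47. Over all genes, the 381 with a transcript of up to 600 bases also had a low median (-0.28 without the members), and those of 600 to 1000 bases had -0.07. Rpl41, with the shortest coding sequence of 75 bases, did not follow the order (-0.10 ± 0.12 SE).

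**Figure D4:**
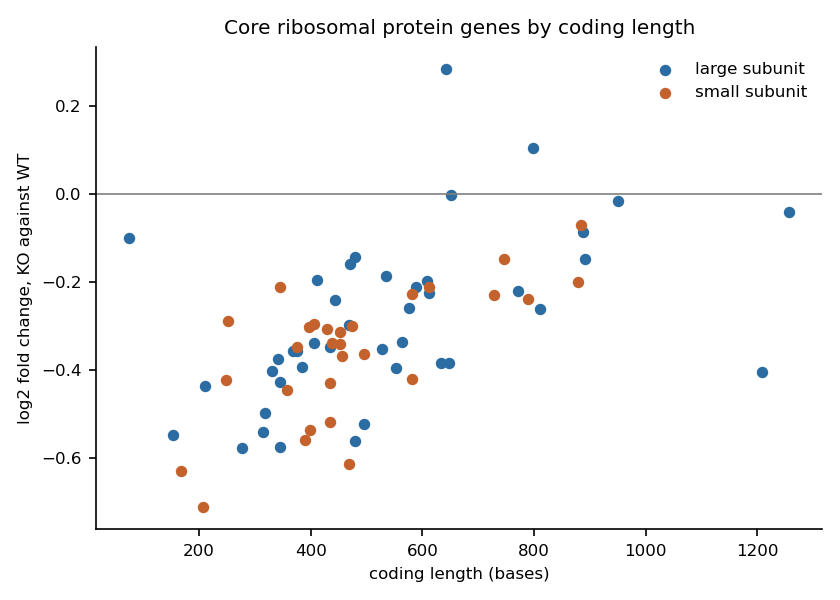
Log2 fold change of the 71 core members against their coding length in bases, coloured by subunit. The median is -0.42 in the shortest and -0.21 in the longest group of members; Rpl41, at 75 bases, and Rpl3, at 1209 bases, lie off this order.

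By level per kilobase of coding sequence, Rpl41 was highest, with 13324 CPM per kb in WT and 12423 in KO. It was followed in WT by Rps24, Rpl13a, Rps29 and Rpsa and in KO by Rpl13a, Rpsa, Rps24 and Rplp0. Reads come from whole transcripts, so this divisor raises genes with many bases outside the coding sequence. Rpl41 has 75 coding bases in a transcript of 437 bases. For Rps4l the whole transcript of 943 bases served as the coding length. The lowest were Rpl39l with 14.7 in WT and 16.4 in KO, and then Rps4l, Rps27 and Rpl5 in both genotypes, followed by Rps27l in WT and by Rpl12 in KO. Summed with copies, Rps27 had 3111 in WT, Rpl12 2821 and Rpl5 1544, so that their low places rest on copies, described next.

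Reads of ribosomal protein genes match processed pseudogenes and retrogenes, copies of their mRNA elsewhere in the genome, and 1 alignment was kept per read. In GENCODE M21, 71 of 77 rows had a copy with at least 95% identity over 80% of the coding sequence, and 42 copies of 29 member rows had their own row in the table. In 5 cases the copy held more counts than the member in every sample. Rpl12, for example, measured 85.9, 94.8 and 105 CPM in WT and 66.3, 66.5 and 66.3 CPM in KO, while Gm10275, with the same coding sequence, measured 1172, 1284 and 1446 CPM in WT and 930, 814 and 882 CPM in KO. Both rows were lower in every KO sample. The coding sequence of Rps27 (GRCm38 chr3:90212522-90213651, exons of the minus strand) had 0 differences from Rps27rt (chr9:114982366-114982739), which lies outside the member rule. Rps27 measured 6.66, 11.4 and 16.9 CPM in WT and 7.61, 9.61 and 11.3 CPM in KO, which overlapped (-0.29 ± 0.32 SE). Rps27rt measured 600, 772 and 943 CPM in WT and 433, 476 and 473 CPM in KO, which did not (-0.75 ± 0.15 SE, adjusted p = 0.0064, edgeR).

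The paralog Rps27l (chr9:66946086-66949516, plus strand) moved the other way, and reads can separate it from Rps27. Both coding sequences, from GENCODE M21, are shown because they are 76.2% identical but did not move together; capitals mark their 60 differing bases.
Rps27: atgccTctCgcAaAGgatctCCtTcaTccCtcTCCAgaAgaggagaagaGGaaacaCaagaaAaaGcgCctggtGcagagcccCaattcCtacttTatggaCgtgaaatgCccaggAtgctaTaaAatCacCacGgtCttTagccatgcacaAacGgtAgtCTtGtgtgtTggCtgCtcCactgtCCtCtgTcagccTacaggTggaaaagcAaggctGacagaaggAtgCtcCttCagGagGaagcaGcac
Rps27l: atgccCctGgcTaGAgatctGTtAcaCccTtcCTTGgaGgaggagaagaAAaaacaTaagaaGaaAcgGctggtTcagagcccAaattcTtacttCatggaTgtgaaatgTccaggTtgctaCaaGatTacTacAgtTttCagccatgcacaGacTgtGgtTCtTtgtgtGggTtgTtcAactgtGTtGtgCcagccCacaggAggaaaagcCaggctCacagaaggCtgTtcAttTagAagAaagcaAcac

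Rps27l, a known p53 target, measured 28.6, 39.2 and 24.8 CPM in WT and 41.7, 44.4 and 52.2 CPM in KO. The KO samples were all above the WT samples, though KO1 and WT2 lay close (0.58 ± 0.17 SE, adjusted p = 0.032, edgeR). Of the other paralogs, Rps4l measured 14.9, 18.6 and 8.41 CPM in WT and 20.6, 19.7 and 19.7 CPM in KO (0.52 ± 0.25 SE, adjusted p = 0.15), with no overlap but a low WT3. Rpl39l, at no more than 3.11 CPM, and Rpl36al did not pass. Rpl10 had a positive value (0.28 ± 0.24 SE) with KO1 alone high, at 339 CPM against 175 and 180 CPM in KO2 and KO3, and its sign turned without KO1. Its copy Rpl10-ps3, with an identical coding sequence, held 68.7% of their joint counts in KO1 and 78.9% to 83.4% in the other samples. Summed with its copies, Rpl10 measured 933, 1049 and 1045 CPM in WT and 1084, 1001 and 1055 CPM in KO, which overlapped (0.05 ± 0.07 SE).

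Rpl3, at the peptide transfer centre, showed how copies can move a value. Its coding sequence (chr15:80077791-80091868, minus strand) differs from the pseudogene Rpl3-ps1 (chrX:13202571-13203780, plus strand) by 2 substitutions, C57A and T786C, counted from the A of the Rpl3 start codon. Bases 27 to 87 are shown, with the differing base in capitals, as most of the sequence leaves reads no base to tell the copies apart.
Rpl3: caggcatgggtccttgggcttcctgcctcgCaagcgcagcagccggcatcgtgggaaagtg
Rpl3-ps1: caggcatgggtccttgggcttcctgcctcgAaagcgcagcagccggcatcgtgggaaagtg

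Rpl3 measured 1218, 1263 and 1893 CPM in WT and 1143, 1072 and 1088 CPM in KO, and fell (-0.40 ± 0.16 SE, adjusted p = 0.084, edgeR). Rpl3-ps1 measured 324, 359 and 0.12 CPM in WT and 482, 441 and 442 CPM in KO, so that WT3 was nearly without it. Summed with its copy, Rpl3 was -0.12 with an adjusted p of 0.35 in edgeR. Rps2, with Rps2-ps10 also lowest in WT3 (12.2 CPM, against 175 and 234 CPM in WT1 and WT2), went from -0.20 to 0.05. For all members, counts summed with copies, an alternative chosen after seeing the data, left 53 of 77 rows lower at adjusted p under 0.1, of which 49 were among the 50 above. The share over all genes was 24.4%. Rpl3 was lost, and Rps13, Rps27, Rpl27a and Rpl5 were gained. Summed Rps27 then had the lowest log2 fold change (-0.74 ± 0.15 SE, adjusted p = 0.0068, edgeR). It was called lower, with Rps28, Rps29 and Rps27a. The median stayed at -0.34.

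**Figure D5:**
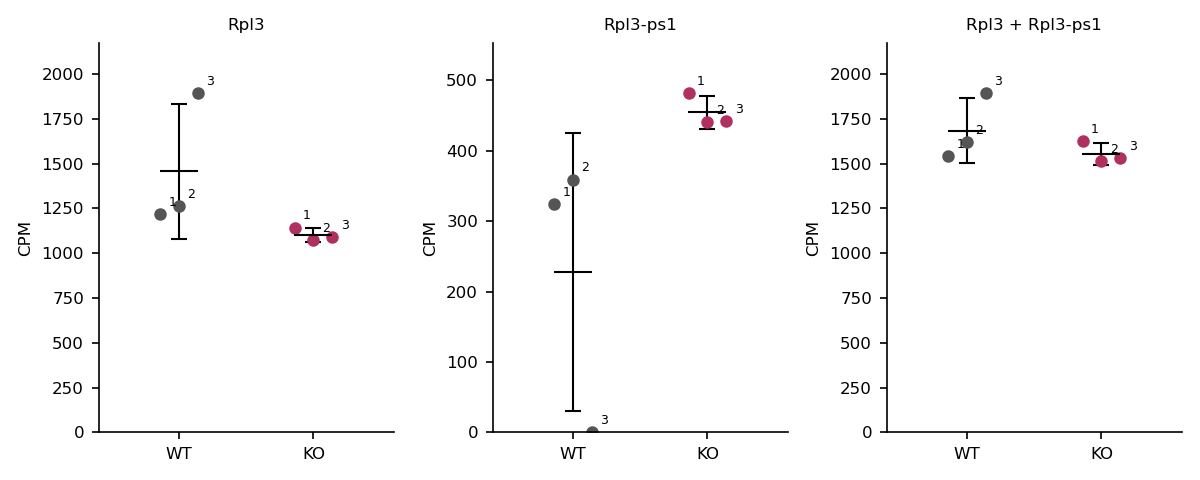
CPM of Rpl3, of its pseudogene Rpl3-ps1 and of their sum in each sample, with the mean ± SD of 3 samples per genotype. WT3 is high in Rpl3 and near 0 in Rpl3-ps1.

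Among ribosomal proteins with other names, Rps3a1 (-0.30 ± 0.08 SE), Fau (-0.30 ± 0.10 SE) and Rack1 (-0.19 ± 0.08 SE) fell.

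Genes of ribosome assembly, other TOP mRNA genes and genes that control TOP mRNAs moved in both directions, while the RNA polymerase I genes that passed all fell. The counts are read against the 24.3% of all genes that fell and the 22.7% that rose at this threshold. Of 71 assembly factors, 11 fell and 13 rose at adjusted p under 0.1, with a median of 0.01. Ncl (nucleolin) rose from 1010, 1056 and 1034 CPM to 1330, 1241 and 1260 CPM (0.31 ± 0.06 SE), and Bysl was called higher (0.66 ± 0.11 SE). Of 15 genes of RNA polymerase I, which transcribes ribosomal RNA, 5 fell (33.3%) and 10 did not pass, with Taf1c called lower (-0.74 ± 0.09 SE). Of 16 TOP mRNA genes that encode no ribosomal protein, 2 fell and 3 rose. The elongation factors Eef1a1 (0.04 ± 0.08 SE) and Eef2 (0.14 ± 0.07 SE) did not pass, Tpt1 fell (-0.36 ± 0.12 SE) and Nap1l1 was called higher (0.68 ± 0.13 SE). Of 14 genes that control TOP mRNAs, 5 fell and 3 rose. Larp1 measured 335, 311 and 359 CPM in WT and 579, 588 and 558 CPM in KO, with no overlap (0.78 ± 0.07 SE, adjusted p = 2.53e-04, edgeR). Mtor (-0.03 ± 0.07 SE) and Myc (-0.06 ± 0.06 SE) did not pass.

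RefSeq promoters (GRCm38.p6, 250 bases before to 50 after the start) matched 56 member symbols. On either strand, CCGGAAG, a core of ETS factor sites, was in 23 of 56 (41.1%), against 19.3% of the 10654 tested genes with a promoter. AAGATGGC, a YY1 core, was in 5 (8.93%, against 4.98%), GGGCGG in 32 (57.1%, against 65.1%) and TATAAA in 6 (10.7%, against 9.64%).

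Markers of other cells summed to no more than 101 CPM in any sample. The 5 B cell genes summed to at most 20.1 CPM in WT and 12.6 CPM in KO. The 5 myeloid genes summed to 41.2 to 53.6 CPM in WT and 74.3 to 84.3 CPM in KO, and the 2 neutrophil genes with a row were at 0 in WT and 3.57 to 5.42 CPM in KO. The 2 CD8 genes summed to 9.32 to 13.2 CPM in WT and 12.0 to 12.7 CPM in KO, and the 3 NK cell genes to 3.59 to 5.83 CPM in WT and 14.9 to 16.2 CPM in KO. The 5 erythroid genes with a row summed to 84.6, 101 and 23.3 CPM in WT and 43.2 to 49.8 CPM in KO, with WT3 lowest. By single gene at adjusted p under 0.1 (edgeR), 5 of 5 myeloid genes rose, with a median log2 fold change of 2.09. Also 2 of 2 neutrophil, 2 of 3 NK cell and 1 of 2 CD8 genes rose. In contrast, 1 of 5 B cell genes fell, and 0 of 5 erythroid genes passed. Over all genes 22.7% rose and 24.3% fell. The 7 Treg and CD4 T cell genes summed to 4506, 4425 and 5461 CPM in WT and 3613 to 3725 CPM in KO, and 4 fell and 1 (Cd4) rose. Among them Foxp3, the defining Treg gene, measured 738, 642 and 1190 CPM in WT and 460, 472 and 463 CPM in KO. The high WT3 values of the list and of Foxp3 stood with the high ribosomal protein level of that sample. WT1 and WT2 did not keep this order. The list and Foxp3 were lower in WT2, while the summed ribosomal protein level was higher (54614 CPM in WT1, 62770 CPM in WT2). The part of cell mix was not tested.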

How the data were processed

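According to its methods, the study cleaned reads with SOAPnuke, mapped them to mm10 by HISAT2 with a single alignment retained for each read, and obtained gene values from StringTie; the gene annotation, the strand use in counting and the step to whole numbers were not given in the sources used here. The authors deposited whole-number counts per gene, and the smallest row sum was 60. Counts were tested with edgeR 4.0.16 in R 4.3.3 (filterByExpr at a minimum count of 10, TMM scaling, quasi-likelihood test of genotype, two-sided, Benjamini-Hochberg adjustment over 13594 genes), and the SE was the log2 fold change divided by the root of F. A gene was called at a fold change over 1.5, p under 0.05 and adjusted p under 0.1. The fits were tested on simulated data. Coding lengths and copies came from GENCODE M21 with BLAST 2.17.0. Alternatives included DESeq2 1.42.0, other scalings and filters, offsets and leaving out each sample. The members and lists were chosen with earlier results of these data known. Named were Zfp335, called members, the 8 largest changes in each direction at 5 CPM or more, the 5 highest and 5 lowest levels per kb, the 3 closest group means, the listed positions in the ribosome, paralogs, and called or abundant genes of the other lists. Only part of these are printed with values. Of 9 snoRNA host genes, 0 had a row. Some genes are not reported here.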

Additional observations from a re-analysis of the deposited data

How the results depend on the processing

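The median log2 fold change of the members stayed between -0.42 and -0.23 in every alternative run, and the same replicate numbers did not pair the samples (correlations -0.041, -0.032 and -0.025). With a replicate block the median was -0.33, 50 member rows passed an adjusted p of 0.1, 4 were called, and 3190 of all genes were called. The 3 called members became 7 with library totals alone, 7 with offsets for GC content and length and 0 with glmTreat at a fold of 1.5, and ranged from 1 to 14 with 1 sample left out. The 51 rows past the adjusted p ranged from 32 to 64 with 1 sample left out. The 3318 called genes became 1402 with glmTreat. The 5 called genes of the other lists became 1 with glmTreat and ranged from 3 to 6 with 1 sample left out. Of 44 named member rows, 8 changed sign somewhere, the cause of which was not tested. Rplp0 became 0.0018 with DESeq2 and with RLE scaling. Rpl14 became 0.015 with both, 0.0063 with at least 10 counts in every sample and 0.0051 with summed copies. Rpl39l became -0.011 with the offsets, and Rps2 became 0.052 with summed copies. With 1 sample left out, Rps27 ranged from -0.57 to 0.078, Rpl4 from -0.091 to 0.012, Rpl36al from -0.087 to 0.033, Rplp0 from -0.070 to 0.025, Rpl14 from -0.045 to 0.053, Rpl39l from -0.058 to 0.29 and Rpl10 from -0.098 to 0.45. With 3 samples per genotype, small differences of single genes are limited by the spread between WT samples.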
